A study of Homo sapiens with 32 samples.

Results

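Romidepsin, an inhibitor of histone deacetylases, was added to 250 nM azacitidine in 4 human T-cell cancer lines, and messenger RNA was compared with that of the same lines given 250 nM azacitidine alone. The comparison uses 8 of the 32 libraries of the series, chosen by their titles: 4 libraries with both drugs and 4 with azacitidine alone, 1 of each from every line. By their labels, HH and H9 are lines of cutaneous T-cell lymphoma, TLOm1 of adult T-cell leukemia and PF382 of T-cell acute lymphoblastic leukemia. In the libraries with both drugs the titles give romidepsin at 1.25 in PF382 and HH and at 1 in TLOm1 and H9, read here as nM from the titles of the single-drug libraries. The azacitidine-alone libraries received 250 nM azacitidine and no romidepsin. Treatment lasted 96 hours in every group, with romidepsin given once at the start and azacitidine repeated daily. The differences therefore describe romidepsin on a background of azacitidine that both groups carry.

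Histone deacetylases remove acetyl groups from histone tails and from many other proteins, usually as the catalytic part of corepressor complexes that keep genes silent. Romidepsin chiefly blocks the class I enzymes, among them HDAC1, HDAC2 and HDAC3, and acetylated histones accumulate in treated cells; the drug is used against cutaneous and peripheral T-cell lymphomas. Azacitidine takes the place of cytidine in newly made RNA and DNA, and in DNA it traps the methyltransferases, so that dividing cells lose methylation. Each line is the culture of 1 tumour and entered each group with 1 library, so the replicates are 4 different cancers and not repeat cultures of 1 line.

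The 8 libraries held 21031511 to 27538021 counts, and 17363 to 18911 gene symbols had at least 1 count. Levels are CPM, read counts scaled to library depth with TMM factors, always in the order PF382, TLOm1, HH and H9. The lines kept T-cell genes unevenly. CD4 was present in all 4 lines (10.5, 813, 350.0 and 21 CPM with both drugs, against 14.6, 1002, 655 and 12.4 CPM with azacitidine alone), whereas CD3G was at 0 in TLOm1 in both groups and CD2 stood at 0.398 CPM in H9 in both groups. The lymphocyte kinase LCK was at 1.07 CPM or less in TLOm1 and HH in either group. Summed levels of marker lists for other cells spanned 26.8 to 410 CPM with both drugs and 10.5 to 472 CPM with azacitidine alone for 10 B-cell genes, 2.97 to 25.6 CPM and 2.14 to 7.2 CPM for 12 myeloid genes, 10.1 to 15.4 CPM and 5.45 to 10.9 CPM for 12 erythroid and megakaryocytic genes, 10.2 to 117 CPM and 1.89 to 143 CPM for 10 fibroblast genes, 17.1 to 268 CPM and 30.3 to 293 CPM for 10 epithelial genes, and 15.8 to 603 CPM and 7.55 to 574 CPM for 15 cytotoxic and natural killer genes. LYZ of myeloid cells did not pass 0.231 CPM in any library, and the epithelial marker EPCAM stood at 138 CPM with both drugs and 159 CPM with azacitidine alone in H9 but at most 1.23 CPM elsewhere. In PF382 all 6 sums were higher with both drugs, and the part of these levels in the results was not tested. In bulk RNA, more cells of a type and more RNA per cell cannot be told apart.

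The sequences upstream of 4 genes that carry the results are shown because promoters are where deacetylase complexes and DNA methylation are known to act, and because these genes differed the same way in every line. NRGN and AKAP12 were called higher and ZMYND11 and RBM3 called lower with romidepsin. Each is the stretch of 250 bases before the annotated start in RefSeq, build GRCh38.p14, 5′ to 3′, with GGGCGG or its reverse complement CCGCCC (the GC box) in capitals. NRGN lies at chr11:124739692-124739941, AKAP12 at chr6:151239717-151239966, ZMYND11 at chr10:129838-130087 and RBM3 at chrX:48574234-48574483, all on the plus strand.
NRGN: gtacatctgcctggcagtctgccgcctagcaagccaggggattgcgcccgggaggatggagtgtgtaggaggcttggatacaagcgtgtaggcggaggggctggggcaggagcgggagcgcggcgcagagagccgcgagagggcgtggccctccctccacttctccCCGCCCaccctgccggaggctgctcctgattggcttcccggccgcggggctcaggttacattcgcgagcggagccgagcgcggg
AKAP12: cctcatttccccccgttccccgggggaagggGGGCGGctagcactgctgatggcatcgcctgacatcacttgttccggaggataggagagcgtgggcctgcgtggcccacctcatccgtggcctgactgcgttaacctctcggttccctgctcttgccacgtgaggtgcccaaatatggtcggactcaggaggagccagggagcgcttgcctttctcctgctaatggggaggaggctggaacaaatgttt
ZMYND11: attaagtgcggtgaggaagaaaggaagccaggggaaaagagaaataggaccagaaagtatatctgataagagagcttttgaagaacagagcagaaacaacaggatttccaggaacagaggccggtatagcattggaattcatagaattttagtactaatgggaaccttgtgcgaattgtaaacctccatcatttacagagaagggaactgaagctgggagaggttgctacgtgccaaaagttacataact
RBM3: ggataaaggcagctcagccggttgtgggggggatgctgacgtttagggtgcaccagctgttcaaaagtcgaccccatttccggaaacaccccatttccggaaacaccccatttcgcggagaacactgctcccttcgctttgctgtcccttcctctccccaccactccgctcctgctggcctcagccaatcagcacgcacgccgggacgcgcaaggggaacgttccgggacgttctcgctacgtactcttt
The window of NRGN held 1 GC box and 23 CpG dinucleotides, that of AKAP12 1 GC box and 13 CpG, that of ZMYND11 no GC box and 4 CpG, and that of RBM3 no GC box and 19 CpG. A window was found by symbol for 467 of the 611 genes called higher, 324 of the 399 called lower and 12580 of the 17801 tested. The GC box occurred on either strand in 66.2% of the windows of genes called higher, 67.3% of those called lower, 63.2% of all tested and 42.3% of all 27305 windows in the table. TATAAA, the core of the TATA box, occurred in 8.14%, 4.32%, 6.22% and 11.1% of the same 4 sets, and CCAAT in 33.6%, 39.8%, 34.6% and 33%. The median number of CpG dinucleotides was 20, 22, 20 and 11. These shares describe the letters of the windows and were not tested.

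Romidepsin changed 1010 of 17801 tested genes (5.67%) at an adjusted p under 0.05 in edgeR's quasi-likelihood test with Benjamini-Hochberg adjustment, with the line as a term of the model; such genes are called here. Of these, 611 (3.43%) were higher and 399 (2.24%) lower with both drugs than with azacitidine alone. The increases were large and the decreases small: the median log2 change was 1.46 among genes called higher and -0.35 among genes called lower. At least a 2-fold change was fitted for 416 of the 611 and for 9 of the 399. Genes called higher often had few reads without romidepsin, as 216 of them averaged under 1 CPM in the azacitidine libraries, against 3 of the genes called lower. The median level in those libraries was 3.41 CPM for genes called higher, 80.4 CPM for genes called lower and 15.5 CPM for all tested genes. Over all 8 libraries, 14288 of the 17801 tested genes averaged at least 1 CPM. All 4 lines moved in the fitted direction for 498 of the genes called higher and 374 of those called lower.

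The number of calls depended on the lines and on the other libraries. Leaving out HH brought it to 202, PF382 to 300, TLOm1 to 517 and H9 to 633, and 56 higher and 18 lower genes were called in all 4 of those fits. The fit with all 4 lines draws its spread from all 32 libraries and each fit without a line from 24; from the 8 libraries alone no gene passed in edgeR, although 2806 had an unadjusted p under 0.05, as 3909 did with all libraries. The expression levels of the 2 groups did not overlap for 110 genes (0.618%).

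The rule for naming single genes took the 12 largest increases and the 12 largest decreases among genes called in all 4 fits without a line, with the same direction in every line and a mean of at least 1 CPM. The largest increase of the 12 was that of CFI, complement factor I, a protease that inactivates complement fragments. It had 0.231, 9.67, 0.232 and 0.797 CPM with both drugs, against 0, 0.262, 0.0421 and 0.109 CPM with azacitidine alone (log2 change 4.25 ± 0.63 (SE), adjusted p = 0.000944). The TLOm1 library with both drugs was the highest, and the 4 azacitidine libraries held only 10 counts in all, against 224 with both drugs. FCER2, the low-affinity IgE receptor CD23, had 0.0771, 2.48, 0.232 and 23.1 CPM with both drugs, against 0, 0.0436, 0 and 2.68 CPM with azacitidine alone (log2 change 3.80 ± 0.69 (SE), adjusted p = 0.0037). Most of its signal lay in H9, with PF382 near 0 in both groups. AKAP12, a scaffold for protein kinases A and C, had 0.463, 7.39, 7.8 and 2.52 CPM with both drugs, against 0.0784, 0.741, 0.21 and 0.217 CPM with azacitidine alone (log2 change 3.71 ± 0.51 (SE), adjusted p = 0.000603). Within each line the level with both drugs was the higher one, while PF382 with both drugs lay below TLOm1 with azacitidine alone.

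Of the 12, HAP1, MAP2 and NES are known best from nerve cells. HAP1, the huntingtin-associated protein, had 8.83, 3.17, 3.72 and 2.88 CPM with both drugs, against 0.235, 0.393, 0.0842 and 0.724 CPM with azacitidine alone (log2 change 3.70 ± 0.63 (SE), adjusted p = 0.00261), and the groups did not overlap. MAP2, a microtubule-associated protein of dendrites, had 4.71, 6.05, 6.5 and 0.443 CPM with both drugs, against 0.667, 0.654, 0.379 and 0.109 CPM with azacitidine alone (log2 change 3.21 ± 0.49 (SE), adjusted p = 0.00114). NES, the intermediate filament nestin of neural progenitors, had 0.81, 17.1, 0.232 and 6.02 CPM with both drugs, against 0, 3.66, 0.0842 and 0.579 CPM with azacitidine alone (log2 change 2.81 ± 0.51 (SE), adjusted p = 0.00373), with TLOm1 and H9 well above PF382 and HH in both groups. SYT7, a calcium sensor of exocytosis, had 8.91, 1.09, 2.6 and 3.05 CPM with both drugs, against 1.76, 0.262, 0.295 and 0.47 CPM with azacitidine alone (log2 change 2.57 ± 0.45 (SE), adjusted p = 0.0031), and its line changes lay close together, between 1.77 and 2.83 on the log2 scale. The transducin-like corepressor TLE2 had 17.3, 12.8, 17.1 and 3.41 CPM with both drugs, against 0.353, 2.57, 1.52 and 0.398 CPM with azacitidine alone (log2 change 3.53 ± 0.61 (SE), adjusted p = 0.0031). Here too the groups did not overlap, and the difference was largest in PF382, at 5.32.

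Among the rest of the 12, CDC42EP3, an effector of the GTPase CDC42, had 8.33, 5.85, 12.9 and 2.92 CPM with both drugs, against 1.92, 1.09, 0.631 and 0.905 CPM with azacitidine alone (log2 change 2.61 ± 0.43 (SE), adjusted p = 0.00178). The homeobox gene HOXC10 had 3.47, 2.33, 0.279 and 1.73 CPM with both drugs, against 0.196, 0.654, 0.0421 and 0.326 CPM with azacitidine alone (log2 change 2.76 ± 0.50 (SE), adjusted p = 0.00392). Neither was high in any azacitidine library, and the groups overlapped for HOXC10 but not for CDC42EP3. DMKN, a secreted protein of the epidermis, had 0.154, 4.61, 0.139 and 10.8 CPM with both drugs, against 0, 0.393, 0 and 2.53 CPM with azacitidine alone (log2 change 2.97 ± 0.47 (SE), adjusted p = 0.00135). FAM131B had 18.6, 0.496, 0.139 and 8.19 CPM with both drugs, against 1.22, 0.0436, 0 and 0.832 CPM with azacitidine alone (log2 change 3.59 ± 0.58 (SE), adjusted p = 0.00171). Both genes were near 0 in HH in either group, and FAM131B was concentrated in PF382 and H9.

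**Figure D1:**
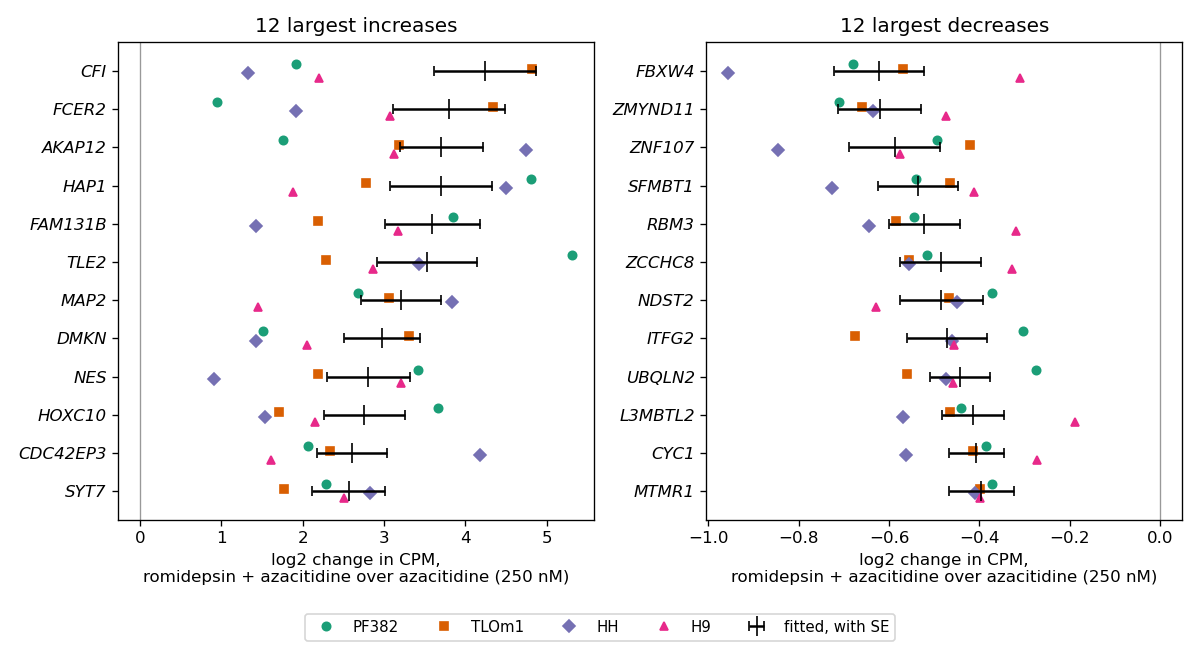
Change with romidepsin of the 12 largest increases (left) and 12 largest decreases (right). The horizontal axis is the log2 change in CPM between romidepsin plus azacitidine and azacitidine alone at 250 nM; coloured symbols are the 4 lines, and black marks the fitted change with its SE. Every symbol lies on the fitted side of 0, with fitted increases of 2.57 to 4.25 and fitted decreases of -0.62 to -0.40. Some symbols of the increases rest on few reads. FCER2 in PF382 had 0.0771 CPM with both drugs and 0 with azacitidine alone, and DMKN and FAM131B in HH each had 0.139 and 0 CPM.

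The 12 decreases were smaller than the increases. ZMYND11, which reads a histone methylation mark on transcribed genes, had 29.8, 39.8, 22.7 and 46.5 CPM with both drugs, against 48.8, 63, 35.4 and 64.7 CPM with azacitidine alone (log2 change -0.62 ± 0.09 (SE), adjusted p = 0.000944). FBXW4, the substrate-binding part of a ubiquitin ligase, had 26.1, 21, 14.2 and 35.8 CPM with both drugs, against 41.8, 31.1, 27.7 and 44.4 CPM with azacitidine alone (log2 change -0.62 ± 0.10 (SE), adjusted p = 0.00143). Each line was lower with romidepsin for both genes, HH most and H9 least for FBXW4, while the groups overlapped. The zinc finger gene ZNF107 had 81.8, 22.7, 21.6 and 25.4 CPM with both drugs, against 115, 30.4, 38.9 and 37.9 CPM with azacitidine alone (log2 change -0.59 ± 0.10 (SE), adjusted p = 0.00264). SFMBT1, a chromatin protein with malignant brain tumour repeats, had 55.6, 14.6, 28.1 and 21 CPM with both drugs, against 80.9, 20.2, 46.5 and 28 CPM with azacitidine alone (log2 change -0.54 ± 0.09 (SE), adjusted p = 0.00189). L3MBTL2, a relative of SFMBT1 in a polycomb complex, had 58, 53.4, 51.8 and 65 CPM with both drugs, against 78.8, 73.8, 76.9 and 74.1 CPM with azacitidine alone (log2 change -0.41 ± 0.07 (SE), adjusted p = 0.00211), and its groups did not overlap.

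RBM3, a cold-inducible RNA-binding protein, had 207, 216, 232 and 314 CPM with both drugs, against 302, 324, 363 and 392 CPM with azacitidine alone (log2 change -0.52 ± 0.08 (SE), adjusted p = 0.000944). ZCCHC8, a subunit of the complex that delivers RNA to the nuclear exosome, had 46.6, 45.6, 26.2 and 43.4 CPM with both drugs, against 66.6, 67.1, 38.6 and 54.6 CPM with azacitidine alone (log2 change -0.49 ± 0.09 (SE), adjusted p = 0.00418). For RBM3 the H9 library with both drugs stood above the PF382 library with azacitidine alone, so the groups overlapped by that line only. The ubiquilin UBQLN2, which carries ubiquitinated proteins to the proteasome, had 47.9, 71.6, 29.1 and 41.5 CPM with both drugs, against 58, 106, 40.5 and 57.1 CPM with azacitidine alone (log2 change -0.44 ± 0.07 (SE), adjusted p = 0.00095). CYC1, the cytochrome c1 of respiratory complex III, had 83, 129.8, 197 and 174 CPM with both drugs, against 109, 173, 292 and 210.0 CPM with azacitidine alone (log2 change -0.41 ± 0.06 (SE), adjusted p = 0.000944). Both were lower with romidepsin in every line. NDST2, a sulfotransferase of heparan sulfate, fell by 0.48 on the log2 scale, ITFG2, a subunit of a complex that restrains mTORC1, by 0.47 and the lipid phosphatase MTMR1 by 0.40, with adjusted p of 0.00458, 0.00441 and 0.00399. The line differences of MTMR1 were -0.37, -0.40, -0.41 and -0.40, the narrowest range of the 12.

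Genes known from other cells to respond to inhibitors of histone deacetylases were often called. In a list of 20 such genes 6 of 19 tested genes were called higher and 1 lower, with a median log2 change of 0.66, against 5.67% called and a median of 0.02 over all tested genes. The stress dehydrogenase DHRS2 had 10.4, 206, 53.9 and 0.575 CPM with both drugs, against 0.627, 131, 3.83 and 0.362 CPM with azacitidine alone (log2 change 2.28 ± 0.52 (SE), adjusted p = 0.0136). PF382 and HH differed strongly between the groups, while H9 stayed under 1 CPM and TLOm1 was already high. CDKN1A, the cyclin-dependent kinase inhibitor p21, had 14.1, 249, 16.9 and 11.6 CPM with both drugs, against 3.25, 148, 11.9 and 2.57 CPM with azacitidine alone (log2 change 1.33 ± 0.31 (SE), adjusted p = 0.0163). The chaperone clusterin, CLU, had 2.04, 137, 12.7 and 7.66 CPM with both drugs, against 0.588, 69.6, 4.63 and 1.56 CPM with azacitidine alone (log2 change 1.52 ± 0.34 (SE), adjusted p = 0.0136), and the thiol oxidoreductase glutaredoxin, GLRX, had 21.5, 28.3, 14.9 and 27.1 CPM with both drugs, against 13.1, 12.9, 9.43 and 23.5 CPM with azacitidine alone (log2 change 0.66 ± 0.12 (SE), adjusted p = 0.00399). These 3 genes were higher with romidepsin in all 4 lines, the smallest difference being 0.21 for GLRX in H9. The efflux pump ABCB1, for which romidepsin is a substrate, had 0.0386, 0.446, 2.6 and 0.177 CPM with both drugs, against 0, 0.0436, 0.21 and 0.0724 CPM with azacitidine alone (log2 change 2.92 ± 0.76 (SE), adjusted p = 0.0261), from 70 counts with both drugs and 8 with azacitidine alone over the 4 libraries. SERTAD1, named after its value was seen, had a log2 change of 0.60 ± 0.17, and thymidylate synthase, TYMS, one of -0.36 ± 0.11 (adjusted p = 0.0461). GLRX lost its call without HH (adjusted p = 0.051), CLU without PF382 (adjusted p = 0.0847) and DHRS2 without PF382 or HH (adjusted p 0.0749 to 0.227). CDKN1A was not called without PF382 or H9 (adjusted p 0.0744 to 0.106), ABCB1 without any 1 line (adjusted p 0.051 to 0.349) and SERTAD1 without any 1 line (adjusted p 0.0512 to 0.28). TYMS lost its call without HH or H9 (adjusted p 0.134 to 0.353).

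The targets of romidepsin themselves were not called. HDAC1 had 415, 255, 249.7 and 418 CPM with both drugs, against 384, 219.6, 226 and 414 CPM with azacitidine alone (log2 change 0.12 ± 0.06, adjusted p = 0.217), and values for HDAC2, HDAC3 and HDAC8 were 0.03 ± 0.10, 0.30 ± 0.11 and 0.22 ± 0.09. HDAC2 had a negative fitted value without HH. Of 18 deacetylases and sirtuins, 1 was higher and 1 lower: SIRT6 (0.39 ± 0.09, adjusted p = 0.0153) and SIRT1 (-0.37 ± 0.10, adjusted p = 0.0356), both deacetylases that need NAD. Of 16 acetyltransferases and bromodomain readers, 3 fell and 1 rose (25%), and only 2 had a positive fitted change. The share called was 11.1% for the deacetylases and sirtuins and 5.67% over all tested genes. KAT7, the catalytic subunit of the HBO1 complex, had 67.7, 65.6, 56.9 and 90.7 CPM with both drugs, against 82.2, 91.9, 74.8 and 105 CPM with azacitidine alone (log2 change -0.34 ± 0.06 (SE), adjusted p = 0.00399), and was lower in every line. KAT5 (-0.27 ± 0.06, adjusted p = 0.0101) and KAT2A (-0.34 ± 0.08, adjusted p = 0.0153), catalytic subunits of the TIP60 and SAGA complexes, fell as well, and the nuclear receptor coactivator NCOA3 (0.45 ± 0.12, adjusted p = 0.0374) rose. In 20 corepressor genes the lower calls were MTA2 (-0.31 ± 0.06, adjusted p = 0.00747), of the NuRD complex, and NCOR1 (-0.25 ± 0.07, adjusted p = 0.0484), the nuclear receptor corepressor. SIRT6 lost its call without PF382 or H9 (adjusted p 0.0973 to 0.102), SIRT1 without any 1 line (adjusted p 0.0721 to 0.16) and KAT5 without PF382 or TLOm1 or HH (adjusted p 0.0789 to 0.17). KAT2A was not called without PF382 or TLOm1 or HH (adjusted p 0.075 to 0.151), NCOA3 without any 1 line (adjusted p 0.0577 to 0.147) and MTA2 without PF382 or TLOm1 or HH (adjusted p 0.0591 to 0.0841). NCOR1 lost its call without any 1 line (adjusted p 0.0582 to 0.202).

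Histone genes gave 2 higher calls of 34 tested (5.88%), near the 5.67% called over all tested genes. The linker histone HIST1H1C had 6.21, 248, 35 and 19.4 CPM with both drugs, against 3.41, 71.4, 13.8 and 15.4 CPM with azacitidine alone (log2 change 1.16 ± 0.32 (SE), adjusted p = 0.0352), and the replacement histone H3F3B rose by 0.41 ± 0.11 (adjusted p = 0.025). H1F0, a linker histone often raised by such inhibitors in other cells, had 199, 634, 0.0929 and 8.72 CPM with both drugs, against 89.9, 631, 1.01 and 9.34 CPM with azacitidine alone. PF382 was up and HH down for H1F0, and its fitted change of 0.25 ± 0.51 was not called (adjusted p = 0.831) and was -0.20 without PF382. All 6 tested metallothioneins, small zinc-binding proteins, had a positive fitted change with a median of 1.18, and none was called in edgeR, although 5 had an unadjusted p under 0.05. HIST1H1C was not called without PF382 or TLOm1 or HH (adjusted p 0.0761 to 0.215) and H3F3B without PF382 or TLOm1 or HH (adjusted p 0.0951 to 0.249).

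Neuronal and synaptic genes showed the largest number of higher calls of the 42 lists examined, which differ in length. Of 41 tested, 11 were called higher (26.8%) and none lower, against 3.43% called higher over all tested genes. The share was larger in the list of deacetylase inhibitor genes, at 6 of 19. Of the neuronal genes, 35 had a positive fitted change, and the median was 0.94, against 0.02 over all genes. Beside MAP2 and SYT7, NRGN led the list. Neurogranin, its product, binds calmodulin in dendritic spines, and the gene had 19.2, 11.7, 15.9 and 7.22 CPM with both drugs, against 4.31, 4.14, 4.59 and 1.52 CPM with azacitidine alone (log2 change 1.91 ± 0.22 (SE), adjusted p = 0.00013). The groups did not overlap, the line differences were 2.13, 1.48, 1.77 and 2.19, and its adjusted p was the smallest of all genes. NXPH4, a neurexophilin that binds neurexins, had 12.3, 4.86, 16.4 and 34.7 CPM with both drugs, against 2.55, 1.74, 6.1 and 15.7 CPM with azacitidine alone (log2 change 1.53 ± 0.28 (SE), adjusted p = 0.00418). NXPH4 was higher in every line, although H9 with azacitidine alone stood above PF382 and TLOm1 with both drugs. The medians of the list in the 4 lines were 0.83, 0.62, 0.99 and 0.81, so no line stood at 0. NXPH4 lost its call without PF382 (adjusted p = 0.0593). NRGN and NXPH4 were in the fixed set of named genes, since an earlier analysis of these data had called both for romidepsin alone. They were thus known hits of this series before the list was examined.

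**Figure D2:**
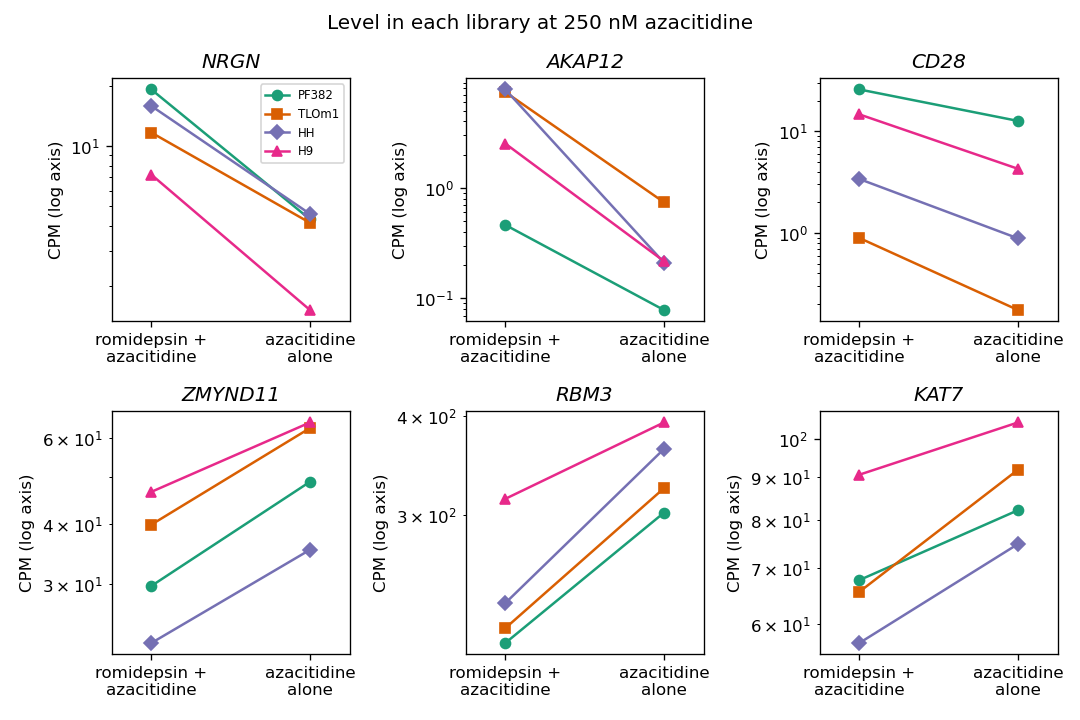
Level of 6 genes in each of the 8 libraries, as CPM on a log axis; lines join the romidepsin plus azacitidine library (left) to the azacitidine library (right) of the same cell line. NRGN, AKAP12 and CD28 are higher, and ZMYND11, RBM3 and KAT7 lower, with romidepsin in all 4 lines, with NRGN at 7.22 to 19.2 CPM against 1.52 to 4.59 CPM.

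Extracellular matrix genes had mostly positive fitted changes. Of 27 collagens, laminins and related genes, 4 were called higher (14.8%) and none lower, 26 had a positive fitted change, and the median was 1.05. Over all tested genes 5.67% were called and the median was 0.02. Fibronectin, FN1, had 20, 52.9, 11.7 and 4.12 CPM with both drugs, against 4.04, 17.5, 4.04 and 2.1 CPM with azacitidine alone (log2 change 1.61 ± 0.23 (SE), adjusted p = 0.000944), with all 4 lines up. The proteoglycan agrin, AGRN, had 60.1, 218, 271 and 93.8 CPM with both drugs, against 21.4, 107, 171 and 69.9 CPM with azacitidine alone (log2 change 0.92 ± 0.18 (SE), adjusted p = 0.00584). For FN1 the groups overlapped only because TLOm1 with azacitidine alone was higher than HH and H9 with both drugs. Type I collagen, COL1A1, had 30.6, 5.95, 4.09 and 15.2 CPM with both drugs, against 3.8, 0.611, 0.463 and 20.4 CPM with azacitidine alone (log2 change 2.08 ± 0.55 (SE), adjusted p = 0.0301). The log2 difference was 2.93 to 3.12 in PF382, TLOm1 and HH but -0.42 in H9. COL14A1, a collagen that lies along collagen fibrils, was fitted at 2.08 ± 0.51 (adjusted p = 0.0206), chiefly from HH. COL1A1 is also on the list of fibroblast markers, where it was the only call among 9 tested; 8 of the 9 had a positive fitted change, the median was 2.08 and 5 had an unadjusted p under 0.05. DCN of the same list did not pass 0.941 CPM in any library, and the part of such markers in the matrix values was not tested. AGRN lost its call without PF382 or TLOm1 (adjusted p 0.0585 to 0.0812), COL1A1 without PF382 or TLOm1 or HH (adjusted p 0.119 to 0.221) and COL14A1 without HH or H9 (adjusted p 0.0818 to 0.275). COL1A1 had a fitted log2 change of 3.18 without H9 and COL14A1 one of 1.18 without HH.

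T-cell genes gave few calls, among them CD28 and 3 lineage transcription factors. Of 29 genes of the T-cell receptor complex and its signalling, only CD28 was called (3.45%), against 5.67% over all tested genes. CD28, the main costimulatory receptor of T cells, had 25.8, 0.893, 3.39 and 14.7 CPM with both drugs, against 12.6, 0.174, 0.884 and 4.27 CPM with azacitidine alone (log2 change 1.60 ± 0.25 (SE), adjusted p = 0.00137), and was higher in each line although the groups overlapped. Among 26 lineage transcription factors 3 were called higher, with a list median of 0.37. TBX21, the T-helper 1 factor T-bet, had 3.47, 0.992, 2.28 and 4.91 CPM with both drugs, against 0.0392, 0.0436, 0 and 1.95 CPM with azacitidine alone (log2 change 3.35 ± 0.72 (SE), adjusted p = 0.00918). PF382, TLOm1 and HH were near 0 with azacitidine alone, whereas H9 already expressed it. STAT4, a signal transducer of T-helper cells, had 7.21, 8.43, 3.72 and 12.6 CPM with both drugs, against 1.33, 1.09, 2.27 and 5.07 CPM with azacitidine alone (log2 change 1.86 ± 0.39 (SE), adjusted p = 0.00871). ETS1, a factor of lymphocyte development, rose by 0.63 ± 0.12 (adjusted p = 0.00584), with line changes of 0.78, 1.08, 0.53 and 0.18. TBX21 lost its call without PF382 or TLOm1 or HH (adjusted p 0.0582 to 0.0902), STAT4 without PF382 or TLOm1 (adjusted p 0.062 to 0.0723) and ETS1 without PF382 or HH (adjusted p 0.0658 to 0.0675). TBX21 had a fitted log2 change of 6.08 without H9.

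Of 29 checkpoint and costimulatory molecules, CD28, CD274 and TNFSF9 were called higher (10.3%) and none lower, against 5.67% called over all tested genes. CD274, the ligand PD-L1 that restrains T cells, had 2.16, 2.03, 1.58 and 0.708 CPM with both drugs, against 0.823, 0.393, 0.21 and 0.362 CPM with azacitidine alone (log2 change 1.82 ± 0.39 (SE), adjusted p = 0.00964) from 147 counts with both drugs against 45 with azacitidine alone. TNFSF9, the ligand of the receptor CD137, had 2.7, 83.8, 70.6 and 35.5 CPM with both drugs, against 0.314, 41.9, 35 and 23.7 CPM with azacitidine alone (log2 change 1.10 ± 0.28 (SE), adjusted p = 0.0255). Both were higher in all 4 lines. Among 28 interleukin receptor and JAK-STAT genes, the feedback inhibitor SOCS3 had 4.82, 3.17, 2.18 and 24.9 CPM with both drugs, against 1.1, 0.698, 0.421 and 25.2 CPM with azacitidine alone (log2 change 1.56 ± 0.44 (SE), adjusted p = 0.0374), and the kinase gene PIM1 rose by 0.84 ± 0.24 (adjusted p = 0.042). H9 held most SOCS3, with a log2 difference of -0.02, against 2.05 to 2.17 in the other 3 lines. Of 21 cytokines and chemokines TNF alone was called, at 0.91 ± 0.27 (adjusted p = 0.0457). Of 18 homing and chemokine receptors 2 were called higher, and the gut-homing integrin subunit ITGB7 (1.10 ± 0.25, adjusted p = 0.0153) rose. CD274 was not called without PF382 or TLOm1 (adjusted p 0.0573 to 0.0914), TNFSF9 without TLOm1 or HH or H9 (adjusted p 0.0627 to 0.154) and SOCS3 without PF382 or TLOm1 or HH (adjusted p 0.151 to 0.238). PIM1 lost its call without PF382 or TLOm1 or HH (adjusted p 0.118 to 0.257), TNF without any 1 line (adjusted p 0.0569 to 0.215) and ITGB7 without PF382 or TLOm1 or HH (adjusted p 0.0535 to 0.0774).

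Of 22 genes of MHC class I and peptide loading, 1 rose and 2 fell, against 5.67% called over all tested genes. B2M, the light chain of every class I molecule, had 850.2, 4517, 1384 and 679.9 CPM with both drugs, against 529, 2699.7, 1038 and 713 CPM with azacitidine alone (log2 change 0.46 ± 0.13 (SE), adjusted p = 0.0374). The immunoproteasome subunit PSMB10 had 48.5, 50.6, 72.1 and 63.9 CPM with both drugs, against 59.6, 72.1, 115 and 71.6 CPM with azacitidine alone (log2 change -0.41 ± 0.11 (SE), adjusted p = 0.027), and the peptide-loading chaperone TAPBP had 99, 111, 231 and 183 CPM with both drugs, against 119, 166, 415 and 215 CPM with azacitidine alone (log2 change -0.47 ± 0.14 (SE), adjusted p = 0.0423). PSMB10 and TAPBP were lower in all 4 lines and B2M higher in 3 of them. Of 44 interferon-stimulated genes only IFI6 was called, with 34 positive fitted changes and a median of 0.18. IFI6, an interferon-induced protein of mitochondria, had 43.4, 40.5, 19.7 and 31.4 CPM with both drugs, against 19.6, 14.3, 17 and 15.4 CPM with azacitidine alone (log2 change 0.98 ± 0.20 (SE), adjusted p = 0.00641), up in each line and least in HH. Among 23 nucleic acid sensors and adaptors, the Toll-like receptor adaptor MYD88 fell by 0.47 on the log2 scale (SE 0.09, adjusted p = 0.00501) and was lower in all 4 lines. Reads shared between near-identical genes, such as MHC genes, could be split in ways the sources do not describe. B2M was not called without PF382 or TLOm1 or HH (adjusted p 0.173 to 0.241), PSMB10 without TLOm1 or HH or H9 (adjusted p 0.0502 to 0.263) and TAPBP without TLOm1 or HH or H9 (adjusted p 0.0523 to 0.282). MYD88 lost its call without HH (adjusted p = 0.0956).

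Cancer testis antigens, are genes that azacitidine is known to induce. None of 32 tested X-linked genes of this class was called on adding romidepsin (5 had an unadjusted p under 0.05 in edgeR), 10 had a positive fitted change, and the median was -0.21, beside a median of 5.94 for the same genes between azacitidine alone and untreated cells; those 2 values share the azacitidine libraries. Of 33 autosomal germline genes only BRDT, a testis bromodomain protein, was called (log2 change 1.01 ± 0.29 (SE), adjusted p = 0.0429), with 12.4, 6.2, 5.71 and 5.84 CPM with both drugs, against 5.69, 2.62, 2.23 and 4.99 CPM with azacitidine alone. Over all tested genes 5.67% were called. Members of the X-linked clusters are near-identical copies, so single genes among them are uncertain. BRDT lost its call without any 1 line (adjusted p 0.0736 to 0.225).

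Fitted changes of cell cycle genes were small and mostly negative. Of 45 tested, 2 fell and 1 rose (6.67%), near the 5.67% called over all tested genes. A positive fitted change was seen for 6, and the median was -0.14. TYMS, which makes thymidylate, had 544, 297, 257 and 185 CPM with both drugs, against 602, 382, 410.2 and 222 CPM with azacitidine alone, and FOXM1, a factor of mitotic gene expression, had 217, 236, 109 and 203 CPM with both drugs, against 277, 285, 174 and 209.8 CPM with azacitidine alone (log2 change -0.32 ± 0.09 (SE), adjusted p = 0.0469). Both were lower in every line, with log2 differences of -0.67 to -0.04. CDK6, a kinase of entry into the cell cycle, rose by 0.39 ± 0.12 (adjusted p = 0.0461), although PF382, which holds most of it, had a difference of 0.03. MYC stood at 0.10 ± 0.12 (adjusted p = 0.647), and of 28 genes of its programme CAD, the first enzyme of pyrimidine synthesis, was the only call (log2 change -0.36 ± 0.10 (SE), adjusted p = 0.0459). DNMT1, the maintenance methyltransferase trapped by azacitidine, stood at -0.08 ± 0.07 (adjusted p = 0.507). TYMS was not called without HH or H9 (adjusted p 0.134 to 0.353), FOXM1 without PF382 or TLOm1 or HH (adjusted p 0.118 to 0.285) and CDK6 without TLOm1 or HH or H9 (adjusted p 0.0762 to 0.247). CAD lost its call without PF382 or TLOm1 or HH (adjusted p 0.125 to 0.207). FOXM1 had a fitted log2 change of -0.21 without HH.

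Of 10 pro-apoptotic genes of the BCL2 family 2 were called higher, and none of 8 anti-apoptotic genes or 16 genes of the death receptor pathway was called, with 2 in each list at an unadjusted p under 0.05 in edgeR. BMF, a promoter of cell death, had 16.5, 92.2, 54 and 40.9 CPM with both drugs, against 10.8, 55, 15 and 20.4 CPM with azacitidine alone (log2 change 1.02 ± 0.19 (SE), adjusted p = 0.00431), and BAK1, a pore-forming effector, had 37.6, 37.4, 70.1 and 65 CPM with both drugs, against 34.3, 29.4, 55.7 and 54.7 CPM with azacitidine alone (log2 change 0.26 ± 0.07 (SE), adjusted p = 0.0221). Both were higher in all 4 lines, BMF most in HH. BCL2L11, the gene of the related protein BIM, had 72.6, 0, 1.35 and 266 CPM with both drugs, against 57, 0.174, 0.0421 and 257 CPM with azacitidine alone and was not called (0.48 ± 0.45, adjusted p = 0.574). Among 22 p53 targets, SESN1 and ZMAT3 were called at 0.66 ± 0.16 and 0.44 ± 0.12 (adjusted p = 0.0206 and 0.0374). The share called was 9.09% for the p53 targets and 20% for the pro-apoptotic genes, against 5.67% over all tested genes. SESN1 restrains mTORC1 and ZMAT3 binds RNA. BAK1 lost its call without any 1 line (adjusted p 0.0577 to 0.143), SESN1 without PF382 or TLOm1 or HH (adjusted p 0.0638 to 0.157) and ZMAT3 without PF382 or TLOm1 or HH (adjusted p 0.121 to 0.329).

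Sterol and fatty acid synthesis was the list with the most lower calls by number. Of 31 genes 5 were called lower (16.1%) and none higher, against 2.24% called lower over all tested genes. The share was larger among acetyltransferases and bromodomain readers, at 3 of 16. In the sterol and fatty acid list 3 genes had a positive fitted change, and the median was -0.28. ACACA, which makes malonyl-CoA, had 69.8, 133, 117 and 106 CPM with both drugs, against 97.2, 169, 153 and 124 CPM with azacitidine alone (log2 change -0.36 ± 0.06 (SE), adjusted p = 0.00269), lower in every line. LSS, the cyclase that forms lanosterol, had 63.6, 87.3, 301 and 93.7 CPM with both drugs, against 83, 152, 453 and 114 CPM with azacitidine alone (log2 change -0.52 ± 0.12 (SE), adjusted p = 0.0149). FASN, fatty acid synthase, fell by 0.40 on the log2 scale (SE 0.10, adjusted p = 0.0194). INSIG1, a regulator of sterol synthesis named after its value was seen, fell by 0.74 on the log2 scale (SE 0.22, adjusted p = 0.0489). LSS lost its call without TLOm1 or HH (adjusted p 0.0907 to 0.134), FASN without PF382 or TLOm1 (adjusted p 0.0895 to 0.182) and INSIG1 without PF382 or TLOm1 or HH (adjusted p 0.104 to 0.259). INSIG1 had a fitted log2 change of -0.48 without TLOm1.

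Other lists held 1 or 2 calls, and over all tested genes 5.67% were called. The glucose transporter gene SLC2A3 (1.29 ± 0.38, adjusted p = 0.0461) was the only call of 37 hypoxia and glycolysis genes, and HERPUD1 (0.44 ± 0.11, adjusted p = 0.0185), of the degradation pathway at the endoplasmic reticulum, the only one of 25 stress genes. The de novo methyltransferase DNMT3B had 219.5, 6.15, 6.13 and 181 CPM with both drugs, against 127, 3.23, 0.337 and 118 CPM with azacitidine alone (log2 change 1.21 ± 0.35 (SE), adjusted p = 0.0461), and HH, near 0 with azacitidine alone, differed most. Among 32 polycomb and histone methylation genes PCGF2 (1.10 ± 0.30, adjusted p = 0.0334), a polycomb ring finger protein, rose and KDM6A (-0.24 ± 0.07, adjusted p = 0.0413), a histone demethylase, fell. Gelsolin, which severs actin filaments, had 16.4, 25.4, 3.9 and 21.7 CPM with both drugs, against 1.92, 7.2, 2.69 and 11.7 CPM with azacitidine alone (GSN, log2 change 1.69 ± 0.34 (SE), adjusted p = 0.00655). Besides ABCB1, ABCC5 (0.39 ± 0.10, adjusted p = 0.022) was called among 15 efflux transporters. ZNF365, a zinc finger gene of genome stability, had 1.16, 10.5, 10.1 and 5.05 CPM with both drugs, against 0.51, 2.22, 6.06 and 2.32 CPM with azacitidine alone (log2 change 1.26 ± 0.27 (SE), adjusted p = 0.00842), and was higher in all 4 lines. No gene was called among 24 NF-kB genes, 24 heat shock and oxidative stress genes or 15 MHC class II genes, of which 8, 6 and 0 had an unadjusted p under 0.05 in edgeR. SLC2A3 lost its call without PF382 or TLOm1 or HH (adjusted p 0.136 to 0.403), HERPUD1 without PF382 or HH (adjusted p 0.064 to 0.186) and DNMT3B without any 1 line (adjusted p 0.0989 to 0.148). PCGF2 was not called without PF382 or HH or H9 (adjusted p 0.0904 to 0.158), KDM6A without any 1 line (adjusted p 0.105 to 0.178) and GSN without PF382 or TLOm1 (adjusted p 0.0524 to 0.0694). ABCC5 lost its call without HH or H9 (adjusted p 0.128 to 0.159). SLC2A3 had a fitted log2 change of 0.67 without HH and DNMT3B one of 0.76 without HH.

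Over all tested genes 5.67% were called, and 9446 of 17801 had a positive fitted change. Lists of marker genes of other cell types held at most 1 call each, but most of their fitted changes were positive. That was so for all 7 tested myeloid markers (median 1.43, 4 with an unadjusted p under 0.05), 8 of 9 fibroblast markers, 8 of 11 cytotoxic and natural killer markers, 7 of 8 epithelial markers and 2 of 3 erythroid and megakaryocytic markers. The myeloid factor CEBPE had its signal chiefly in PF382, at 13.4 CPM with both drugs and 1.88 CPM with azacitidine alone (log2 change 2.70 ± 0.54 (SE), adjusted p = 0.0187), and no fit without PF382 could test it. The platelet integrin subunit ITGA2B (1.90 ± 0.52, adjusted p = 0.0334) and the granule protease GZMM (1.82 ± 0.48, adjusted p = 0.0296) rose, and the epithelial keratin KRT7 (-1.02 ± 0.24, adjusted p = 0.018) fell. None of 10 B-cell markers was called, although all 10 had a positive fitted change, with a median of 1.35, and 3 an unadjusted p under 0.05. CEBPE was not called without TLOm1 (adjusted p = 0.114), ITGA2B without PF382 or TLOm1 or HH (adjusted p 0.1 to 0.194) and GZMM without PF382 or HH or H9 (adjusted p 0.0531 to 0.229). KRT7 lost its call without TLOm1 or HH (adjusted p 0.0994 to 0.233).

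**Figure D3:**
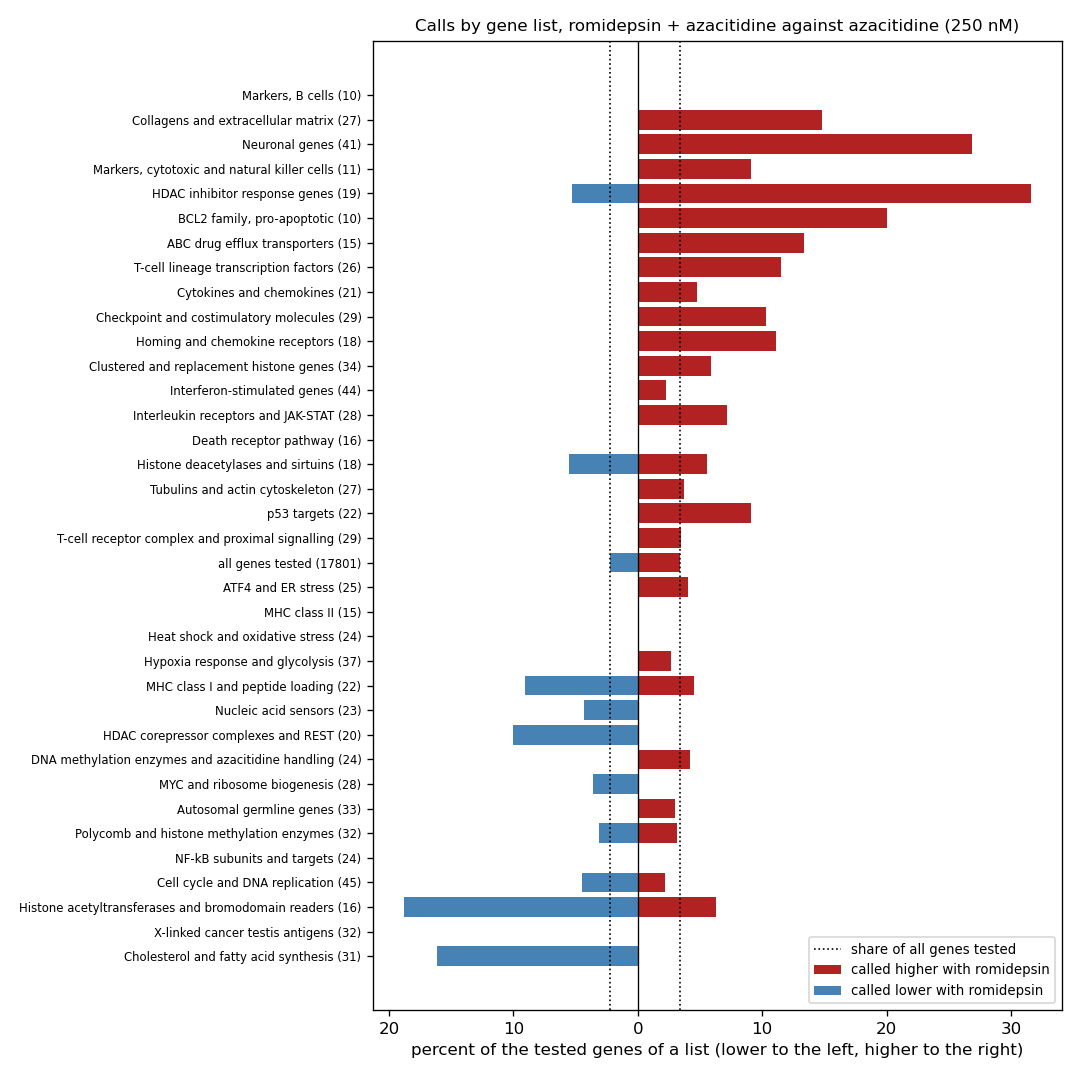
Share of the tested genes of each list with 10 or more tested genes that were called higher (right, red) or lower (left, blue) with romidepsin plus azacitidine against azacitidine alone; the number tested is in brackets, and lists run from the highest median log2 change at the top to the lowest. Dotted lines give the shares over all tested genes, 3.43% higher and 2.24% lower. Neuronal genes have 11 of 41 called higher and sterol and fatty acid genes 5 of 31 called lower.

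The addition of romidepsin was repeated at other azacitidine doses in separate libraries. At 125 nM in the same 4 lines, 58 genes (0.326%) were called, 47 higher and 11 lower, and 56 of them were among the 1010 called at 250 nM. Leaving out HH brought the number to 2, PF382 to 3, TLOm1 to 16 and H9 to 32. The direction at 125 nM matched that at 250 nM for 1007 of the 1010 genes (99.7%), against 79.7% of all tested genes. The median log2 change at 125 nM was 0.95 for the genes called higher at 250 nM and -0.22 for those called lower, against 1.46 and -0.35 at 250 nM, where the calls were made. NRGN changed by 1.67 ± 0.22 at 125 nM (adjusted p = 0.00142), AKAP12 by 3.06 ± 0.54 (adjusted p = 0.019) and CD28 by 1.11 ± 0.24 (adjusted p = 0.049). ZMYND11 changed by -0.44 ± 0.09 (adjusted p = 0.0401) and RBM3 by -0.36 ± 0.08 (adjusted p = 0.049). Each of these 5 genes was thus called again, in libraries that the 250 nM comparison did not use for its levels. Both comparisons share 1 model and its estimate of spread, however. Other named genes were not called again, such as KAT7 (-0.20 ± 0.06 at 125 nM, adjusted p = 0.175). Among the largest increases, FCER2, HAP1, NES, HOXC10 and SYT7 were not called at 125 nM (adjusted p 0.0539 to 0.105), and the others were. Among the largest decreases, only FBXW4, ZMYND11 and RBM3 were called at 125 nM, and the others were not (adjusted p 0.059 to 0.278).

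At 50 nM, measured in HH and H9, no gene was called in edgeR (872 had an unadjusted p under 0.05) and 89.0% of the 1010 genes kept their direction, against 63.2% of all tested genes. At 500 nM, measured in PF382 and TLOm1, 2466 genes (13.9%) were called, of which 781 were among the 1010, and 99.7% of the 1010 kept their direction, against 79.4% of all. The median log2 change of the genes called higher at 250 nM was 0.49 at 50 nM, 0.95 at 125 nM and 1.66 at 500 nM, and that of the genes called lower was -0.15, -0.22 and -0.52. Doses differ in lines, so these medians are set side by side and were not compared.

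**Figure D4:**
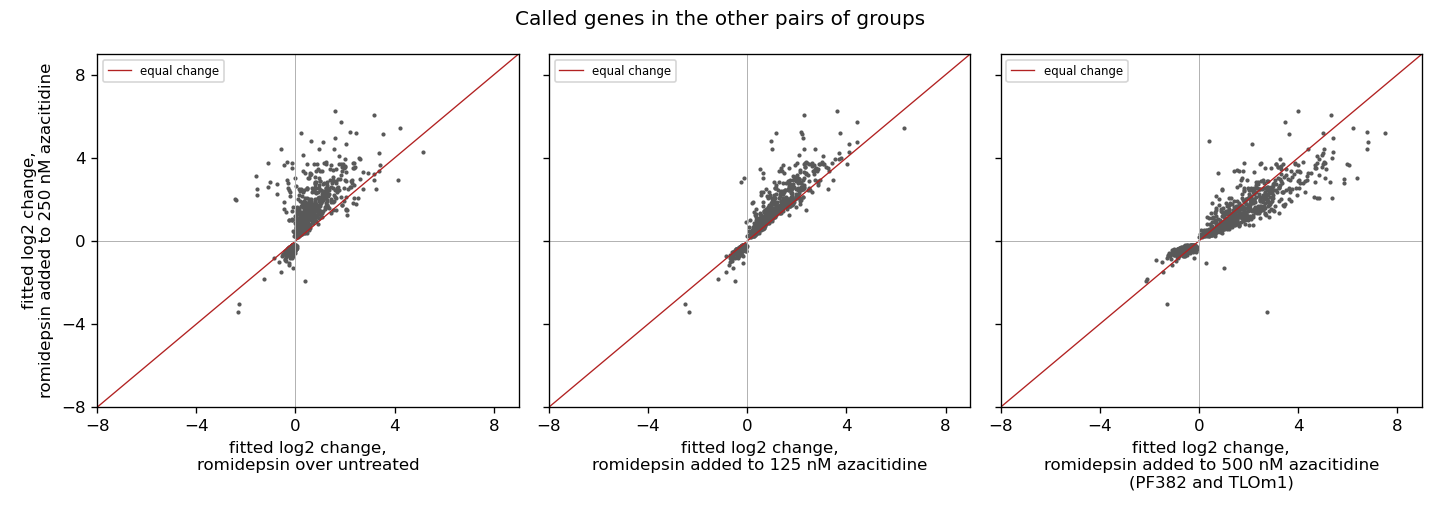
Fitted log2 change on adding romidepsin to 250 nM azacitidine (vertical axis) of the 1010 called genes, against the fitted log2 change for romidepsin over untreated cells (left), romidepsin added to 125 nM azacitidine (middle) and to 500 nM azacitidine in PF382 and TLOm1 (right). Each point is a gene and the red line marks equal change; 94.8%, 99.7% and 99.7% of the genes have the same sign on both axes.

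Romidepsin was also given without azacitidine. Against untreated cells 3 genes were called (0.0169%), all of them among the 1010. Of the 1010, 94.8% had the same direction as with azacitidine present, against 69.1% of all tested genes, and the median was 0.49 for those called higher and -0.14 for those called lower. The difference between both effects of romidepsin was tested directly, as the change on 250 nM azacitidine minus the change alone. No gene passed in edgeR, limma-voom or DESeq2, and 596 genes (3.35%) had an unadjusted p under 0.05 in edgeR, 671 in limma-voom and 565 in DESeq2. The fitted difference was 0.62 ± 0.31 for NRGN, 2.84 ± 1.10 for AKAP12, 3.12 ± 1.71 for NES and -0.39 ± 0.13 for ZMYND11 on the log2 scale. Not every named gene had a larger change with azacitidine present. The difference was 0.05 ± 1.58 for MAP2, -0.51 ± 0.42 for NXPH4 and -0.51 ± 0.58 for CD274, all called higher at 250 nM. The HH library with romidepsin alone is labelled 1 nM and that with both drugs 1.25, so dose differs within that line between the effects.

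Line differences were tested on more libraries. Equality of the romidepsin effect in the 4 lines was tested over the 24 libraries with azacitidine, 3 doses a line, and was rejected for 5969 of 17742 genes (33.6%), among them 387 of the 1010 called genes (38.4%). The doses were 125, 250 and 500 nM azacitidine in PF382 and TLOm1 but 50, 125 and 250 nM in HH and H9, so over all 24 libraries the line and the azacitidine dose cannot be told apart. Over the 16 libraries at 125 and 250 nM, which every line has, equality was rejected for 5397 of 17208 genes (31.4%), 4491 of them among the 5969, in an alternative chosen after seeing the data. With each line's own 3 doses pooled, romidepsin changed 6000 genes in PF382 (33.8%), 5986 in TLOm1 (33.7%), 4712 in HH (26.6%) and 831 in H9 (4.68%). At the 2 shared doses it changed 4504 in PF382 (26.2%), 3888 in TLOm1 (22.6%), 5520 in HH (32.1%) and 1289 in H9 (7.49%). In these fits the doses of a line stood in for replicate cultures, as each condition had 1 library. A single romidepsin effect per line was fitted at all doses, so the counts and p-values do not measure the spread between cultures. Within the 250 nM pair alone, which gives no test for a single line, 14288 genes averaged at least 1 CPM. Of these, 1368 were at least 2-fold higher and 80 lower in PF382 (10.1% together), 751 and 344 in TLOm1 (7.66%), 1235 and 448 in HH (11.8%), and 622 and 108 in H9 (5.11%). PF382 and HH received 1.25 and TLOm1 and H9 1 nM romidepsin, so line and romidepsin dose cannot be told apart in either test. A fit to PF382 and HH alone called 37 genes at 250 nM and a fit to TLOm1 and H9 alone called 2.

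The 5 called genes with the smallest p for a difference between lines were VDR, RHOBTB3, GABBR1, MIAT and GABARAPL1. VDR, the vitamin D receptor, had 7.14, 50.9, 13.9 and 14.2 CPM with both drugs, against 0.941, 37.8, 5.85 and 7.46 CPM with azacitidine alone, with the largest difference in PF382. RHOBTB3, an atypical GTPase family member, had 15.8, 5.16, 41.5 and 93.5 CPM with both drugs, against 5.06, 1.4, 20.8 and 88.5 CPM with azacitidine alone with the smallest difference in H9. GABBR1, a receptor subunit for the transmitter GABA, had 69.9, 22.6, 13.6 and 17.8 CPM with both drugs, against 47.6, 13.1, 0.379 and 6.33 CPM with azacitidine alone, with the largest change in HH. The long noncoding RNA MIAT had 345, 46.6, 520.4 and 73.6 CPM with both drugs, against 56.3, 5.54, 355 and 8.83 CPM with azacitidine alone, up strongly in 3 lines and least in HH, and was called at 2.29 ± 0.41 (adjusted p = 0.00352) in the comparison at 250 nM. GABARAPL1, an autophagy protein, had 18.4, 20, 6.64 and 26.4 CPM with both drugs, against 7.45, 9.16, 0.0842 and 20.7 CPM with azacitidine alone. Adjusted p for a difference between lines was 4.32e-07, 1.05e-06, 1.1e-06, 2e-06 and 2.28e-06 in that order, and at the 2 shared doses it was 2.75e-06, 5.72e-06, 6.83e-08, 0.00185 and 1.22e-06. VDR was not called without HH or H9 (adjusted p 0.111 to 0.212), RHOBTB3 without PF382 or TLOm1 or HH (adjusted p 0.0927 to 0.167) and GABBR1 without PF382 or TLOm1 or H9 (adjusted p 0.0889 to 0.135). GABARAPL1 lost its call without any 1 line (adjusted p 0.0664 to 0.176). GABBR1 had a fitted log2 change of 0.92 without HH and GABARAPL1 one of 0.98 without HH.

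MHC class II genes, which present peptides to CD4 cells, differed between the lines without a common change: 14 of 15 genes differed between lines, and all 15 at the 2 shared doses, while none was called over all of them. The list median in the 250 nM pair was 1.30 in PF382, -0.25 in TLOm1, -0.63 in HH and 0.61 in H9. HLA-DRA had 1.2, 1906, 611 and 71.3 CPM with both drugs, against 0.471, 2242, 845 and 42.7 CPM with azacitidine alone, CD74, the invariant chain, had 7.98, 7682, 3298 and 577 CPM with both drugs, against 2.59, 9620.0, 5467 and 481 CPM with azacitidine alone, and CIITA, the transactivator of the class, had 0.193, 482, 257 and 32.7 CPM with both drugs, against 0.0784, 844, 636 and 25.9 CPM with azacitidine alone; the 3 genes were chosen after their values were seen. All 3 were lower in TLOm1 and HH and higher in PF382 and H9, where their levels were below those of TLOm1 and HH. CIITA in PF382 was near 0 in both groups, and its change there pooled over the 3 doses was -0.07. Their adjusted p for a difference between lines was 3.03e-06, 7.62e-06 and 0.00481, and 1.51e-06, 3.82e-05 and 0.000133 at the 2 shared doses. BCL2L11 and H1F0 differed in opposite directions in single lines, by 0.35, -1.63, 3.51 and 0.05 and by 1.14, 0.01, -2.63 and -0.10 in the 4 lines. For BCL2L11 in TLOm1 and HH and for H1F0 in HH, a library of the pair had under 3 counts, so these values are uncertain. TXNIP, the thioredoxin-interacting protein, was at 0 in HH with azacitidine alone and at 3.72 CPM with both drugs, while H9 had a difference of 0.05.

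**Figure D5:**
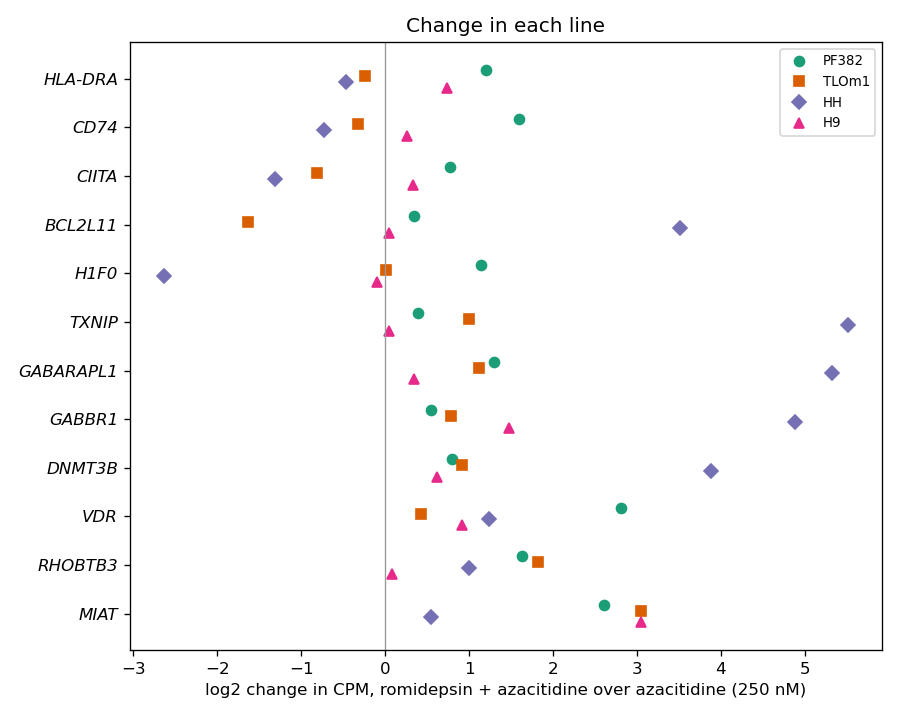
Change with romidepsin in each line for genes whose lines differ, as the log2 change in CPM between romidepsin plus azacitidine and azacitidine alone at 250 nM; symbols are the 4 lines. The 3 MHC class II genes lie left of 0 in TLOm1 and HH and right of 0 in PF382 and H9, and BCL2L11 lies at -1.63 in TLOm1 and 3.51 in HH. Some symbols rest on a library with under 3 counts, among them CIITA in PF382, BCL2L11 in TLOm1 and HH, and H1F0 in HH.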

How the data were processed

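The labels describe strand-specific mRNA libraries of 4 cell lines sequenced on a NextSeq 500, and the submitters' processing notes name STAR, limma, DESeq2 and the build GRCh37.p2. The authors deposited whole-number read counts for 25559 gene symbols in each of 32 libraries; the counting tool, its use of strand and its treatment of shared reads were not given in the sources used here. Labels call the RNA polyA in 1 field and rRNA depleted in another, so genes without poly(A) tails, such as most histone genes, may be under-counted.

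From these counts, edgeR 4.0.16 (R 4.3.3) kept 17801 symbols by filterByExpr (minimum count 10, total 15), scaled libraries by TMM and fitted the 10 groups of treatment and dose plus the cell line over all 32 libraries, with 19 residual degrees of freedom and a robust quasi-likelihood F test. Adjusted p-values are Benjamini-Hochberg over all tested genes, with a threshold of 0.05. SE is the log2 change divided by the root of F. Levels are TMM-scaled CPM, changes within a line are differences of log2 CPM with a prior count of 2, and 3 counts correspond to 0.109 to 0.149 CPM in the 8 libraries. Differences between lines used the 24 azacitidine libraries (8 residual degrees of freedom), with the doses of a line in place of replicate cultures. The 2 groups pair by cell line, and deviations from the group means correlated at 0.905 to 0.939 within each line over genes, so the line is a term of the model. No pair of libraries agreed within sampling noise: the closest had a chi-square of 19 per gene.

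Genes are named by 1 rule: the 12 largest increases and 12 largest decreases that were called, moved the same way in 4 lines, averaged at least 1 CPM and stayed called without each line; up to 4 called members of each of 42 lists by smallest adjusted p; a fixed set; and the 5 called genes with the smallest p for a difference between lines. Members, lists and tests were chosen with earlier results of these data known. The fixed set includes NRGN, NXPH4 and ZNF365, which an earlier analysis of these data called for romidepsin alone. Alternatives changed the scaling, the count filter, the tool (limma-voom 3.58.1, DESeq2 1.42.0), the lines, the pairing term and the libraries that give the spread. On simulated counts for 17801 genes, the comparison at 250 nM called 99 of 100 genes with a 2-fold change and 100 of 100 with a 4-fold change, and 8 of 17401 unchanged genes. The test of lines called 194 of 200 genes changed 4-fold in HH. The simulated counts had a lower spread than the real lines may have. The changed genes were drawn only from well-counted genes and, in the comparison at 250 nM, changed equally in all 4 lines. The rates therefore do not cover genes with few reads or genes whose lines differ. Some genes that these rules would name are not reported here. Promoter windows are RefSeq sequences of GRCh38.p14, matched by symbol, and no coordinate of the files' build is used.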

Additional observations from a re-analysis of the deposited data

Results flagged for a closer look

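Single lines stood apart from the other 3 in 5 of the 114 genes screened, where the gap to the nearest line, as a share of the whole range, passed Dixon's critical value for 4 samples; chance gives this for about 1 in 20 groups. SOCS3 had a log2 difference of -0.0152 in H9, with 2.05 to 2.17 elsewhere. DNMT3B stood at 3.89 in HH. COL1A1 stood at -0.42 and DNMT1 at -0.024, both in H9. PCDH1, with 0 counts in the azacitidine libraries, had a difference of 4.25 in PF382.

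The effect of romidepsin on azacitidine differed between the 4 lines for 59 of the 114 genes, by the test over 24 libraries whose adjusted p (edgeR) stands in brackets below. PF382 and TLOm1 entered it with 125, 250 and 500 nM azacitidine and HH and H9 with 50, 125 and 250 nM; at the 2 shared doses 58 of the 114 genes passed. Over all genes 33.6% passed, but that share is no measure for the 114, since some were named for a difference between lines or after their values were seen. Among the largest increases these were HAP1 (0.0158), FAM131B (0.011), TLE2 (0.000343), DMKN (0.0335), HOXC10 (0.0344) and CDC42EP3 (0.000182). Among the largest decreases they were ZMYND11 (0.0254) and RBM3 (0.032). Among deacetylase inhibitor targets, deacetylases and chromatin genes they were GLRX (0.00726), CDKN1A (0.0101), H1F0 (0.000693), HIST1H1C (0.00667), H3F3B (0.00668), HDAC2 (0.0249), HDAC3 (0.00447), NCOR1 (0.0408), DNMT3B (0.00558), PCGF2 (0.000216) and TXNIP (0.00869). Among T-cell, cytokine and homing genes they were ETS1 (2.72e-05), STAT4 (3.64e-05), TBX21 (0.0328), SOCS3 (2.08e-05), PIM1 (9.54e-05), TNF (0.00308), ITGB7 (9.27e-05), CD274 (0.00928), TNFSF9 (0.00719) and GZMM (0.00223). Among antigen presentation, interferon and sensor genes they were HLA-DRA (3.03e-06), CD74 (7.62e-06), CIITA (0.00481), B2M (0.000276), TAPBP (0.0387), IFI6 (0.00719) and MYD88 (0.0332). Among matrix, cytoskeletal and marker genes they were FN1 (0.00336), AGRN (0.000129), COL14A1 (0.00485), COL1A1 (0.00322), GSN (4.29e-06), ITGA2B (0.00537) and KRT7 (0.0079). Among lipid, cell cycle and cell death genes they were FASN (0.00129), INSIG1 (0.000446), MYC (0.0183), CDK6 (0.0157), ZMAT3 (0.0124) and BCL2L11 (5.94e-05). Others were NXPH4 (0.0224), ZNF365 (0.0162), VDR (4.32e-07), RHOBTB3 (1.05e-06), GABBR1 (1.1e-06), MIAT (2e-06), GABARAPL1 (2.28e-06), AIRE (0.000305), C19orf51 (0.00384) and ADAM11 (0.0439).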

How the results depend on the processing

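The number of calls depended on the processing. At 250 nM, 1010 calls became 202 to 633 with 1 line left out (202 without HH, 633 without H9), 0 from the 8 compared libraries alone, 5065 with the doses pooled, 2 from TLOm1 and H9 alone and 37 from PF382 and HH alone. Scaling by median of ratios, no count filter, a stricter filter, limma-voom and DESeq2 gave 936, 809, 942, 1269 and 1236. The 611 higher and 399 lower calls became 633 and 303 with scaling by median of ratios. They became 158 and 44 without HH, 173 and 127 without PF382, 389 and 128 without TLOm1, and 334 and 299 without H9. Without the replicate block, that is without the cell line term that pairs the libraries, 0 genes were called at 250 nM and 0 at 125 nM. At 125 nM, 58 calls became 2 to 32 without a line, 222 with limma-voom and 193 with DESeq2. The difference between lines held for 5969 genes, for 3551 (without PF382) to 4780 without a line and, in an alternative chosen after seeing the data, for 5397 at the azacitidine doses that all lines share. The comparison with romidepsin alone gave 0 calls in each alternative run.

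Fitted values turned negative for genes that were never called. H1F0 gave -0.20 (without PF382) to 0.40 with 1 line left out and -0.043 in TLOm1 and H9 alone, HDAC2 -0.041 (without HH) to 0.13 and -0.12, and BCL2L11 -0.011 in TLOm1 and H9 alone. CD74 gave -0.27 (without PF382) to 0.41 with 1 line left out, -0.26 in limma-voom, -0.43 without the line term and -0.019 in TLOm1 and H9 alone. HLA-DRA gave -0.16 (without H9) to 0.45 with 1 line left out, -0.12 in limma-voom, -0.27 without the line term and -0.092 in PF382 and HH alone. The cause of these differences was not tested. No called gene named in the report changed sign in any alternative run. With 1 library per line and group, an effect in a single line has no replicate at 250 nM, and genes with under 3 counts in a library lie below 0.149 CPM. Romidepsin dose, cell line and tumour type cannot be told apart.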

Other observations

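The genes in this section were chosen after their values were seen. Beyond the 24 largest changes, 5 genes with a low p are described here. FNBP4, a formin-binding protein, had 123, 96.9, 117 and 102 CPM with both drugs, against 152, 124, 146 and 128 CPM with azacitidine alone (log2 change -0.33 ± 0.04 (SE), adjusted p = 0.000599), and its line changes were -0.31, -0.36, -0.32 and -0.33. The melanosome protein PMEL had 23.5, 4.61, 3.39 and 3.19 CPM with both drugs, against 3.49, 0.785, 0.926 and 0.76 CPM with azacitidine alone (log2 change 2.36 ± 0.32 (SE), adjusted p = 0.000599). LRP1, an endocytic receptor, had 49.3, 36.5, 13.8 and 2.88 CPM with both drugs, against 10.2, 15.1, 2.44 and 0.615 CPM with azacitidine alone (log2 change 2.01 ± 0.28 (SE), adjusted p = 0.000737), and ADAM11, a membrane protein best known from the nervous system, had 11, 4.46, 3.95 and 4.74 CPM with both drugs, against 3.45, 2.05, 0.631 and 1.85 CPM with azacitidine alone (log2 change 1.64 ± 0.22 (SE), adjusted p = 0.000599). C19orf51 had 7.68, 3.47, 15.1 and 17.2 CPM with both drugs, against 1.37, 0.393, 2.4 and 3.94 CPM with azacitidine alone (log2 change 2.51 ± 0.32 (SE), adjusted p = 0.00046), and its change at 125 nM was 2.08 ± 0.31 (adjusted p = 0.00488). These 5 genes stayed called without each line; the line differences of FNBP4 lay closest together, while ADAM11 and C19orf51 differed between lines.

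Some large fitted changes rested on 1 line or on few counts. IDO1, which degrades tryptophan and restrains T cells, stood at 12 CPM with both drugs and 0.218 CPM with azacitidine alone in TLOm1, with 244 counts with both drugs and 5 with azacitidine alone over 4 libraries. AIRE, the regulator of self-antigens in thymic epithelium, stood at 4.23 CPM with both drugs and 73 CPM with azacitidine alone in HH and under 1 CPM elsewhere; its adjusted p was 0.00987 and 0.487 without HH. The protocadherin gene PCDH1 had 43 counts with both drugs and 0 with azacitidine alone over 4 libraries, mostly in PF382. NEUROD1, a neuronal transcription factor, had 25 counts with both drugs and 0 with azacitidine alone over 4 libraries, and its call was lost without TLOm1 or HH (adjusted p 0.0838 to 0.0881). ANKRD55 had 50 counts with both drugs and 1 with azacitidine alone over 4 libraries, and PAGE2B, an X-linked cancer testis gene outside the list above, had 46 counts with both drugs and 202 with azacitidine alone over 4 libraries (log2 change -1.92 ± 0.53 (SE), adjusted p = 0.0347). PAGE2B lost its call without PF382 or TLOm1 or HH (adjusted p 0.0819 to 0.198). Neither PCDH1 nor NEUROD1 could be tested without PF382, nor IDO1 without TLOm1.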
